A study of Mus musculus with 8 samples.

Results

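Ttr, Clic6, Folr1, Kl, Otx2, Aqp1, Slc4a5, Sostdc1 and Calml4 are genes by which the epithelium of the choroid plexus is recognised, and they were followed here through libraries of the mouse arcuate nucleus. The 9 genes were picked by name, with earlier results of the same FPKM values known, so their levels are described without a test. A gene counted as listed if it had a row in the deposited gene tables, which keep a gene if the mean of either group compared is 0.5 FPKM or more (FPKM is the number of sequenced fragments, scaled to transcript length and library size). Of the 9 genes, 8 were listed, among 13769 genes listed in all, and Slc4a5, a sodium bicarbonate cotransporter, was in no table.

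The choroid plexus is a folded sheet of epithelium that hangs into the brain ventricles, secretes cerebrospinal fluid and carries vitamins and hormones from blood into it. Its cells make transthyretin in very large amounts, move ions and water across their apical face, and owe their identity to the transcription factor OTX2. The arcuate nucleus lies at the floor of the ventricle of the hypothalamus, beside ependymal cells and tanycytes, and holds neurons that express Pomc or Agrp and Npy, but it has no choroid plexus of its own.

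The study asked how miR-7 and the miR-17-92 cluster act in neurons that express Pomc, and how the arcuate nucleus differs by sex. All mice were on a C57BL/6 background and 4 months old, and each of the 8 libraries pooled tissue from 2 mice. The knockout males were Pomc-Cre;miR-17-92flox/flox, compared with male wild type littermates. The sponge females were Pomc-Cre;miR-7-sponge, compared with female wild type littermates, and the wild type females were also compared with the wild type males. Each group had 2 libraries, numbered 1 and 2 in the labels, except that the wild type females were numbered 2 and 4. The labels give wild type as the genotype of both control groups and name no Cre driver in them. Pomc-Cre acts in the POMC lineage, whereas the libraries came from the whole dissected nucleus, so a change inside POMC neurons is diluted by all other cells. In such tissue, fewer cells of a type and less RNA per cell cannot be told apart. The labels do not say which pools came from which litters, so the spread between libraries may be partly technical.

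Pomc, Agrp, Npy and Cartpt, which mark arcuate neurons, were present in every library. Their FPKM ranged from 12.4 to 90.4 for Pomc, from 14.6 to 28.3 for Agrp, from 38.2 to 83.1 for Npy and from 12.2 to 119 for Cartpt, whose lowest value was in wild type female replicate 2. Summed FPKM over all listed genes lay between 141666 and 152741 per library. The number of reads behind an FPKM is unknown, so no counting error can be given.

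Wild type female replicate 2 stood apart from the other 7 libraries in the choroid plexus genes, so the differences between groups are given below with and without it. Of the 8 listed genes, 7 were highest in this library, the exception being Calml4. Over all 13512 genes with values in 6 or 8 libraries, 12.8% were highest there. In 5 of the 8 genes, namely Ttr, Aqp1, Folr1, Sostdc1 and Otx2, the library was at least 2-fold above the next highest, against 0.252% of all genes. Aqp1, Folr1 and Otx2 were listed only through the wild type females, the group that holds this library. These counts therefore describe the values by which the genes were known and listed. They are not a test and support nothing.

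**Figure D1:**
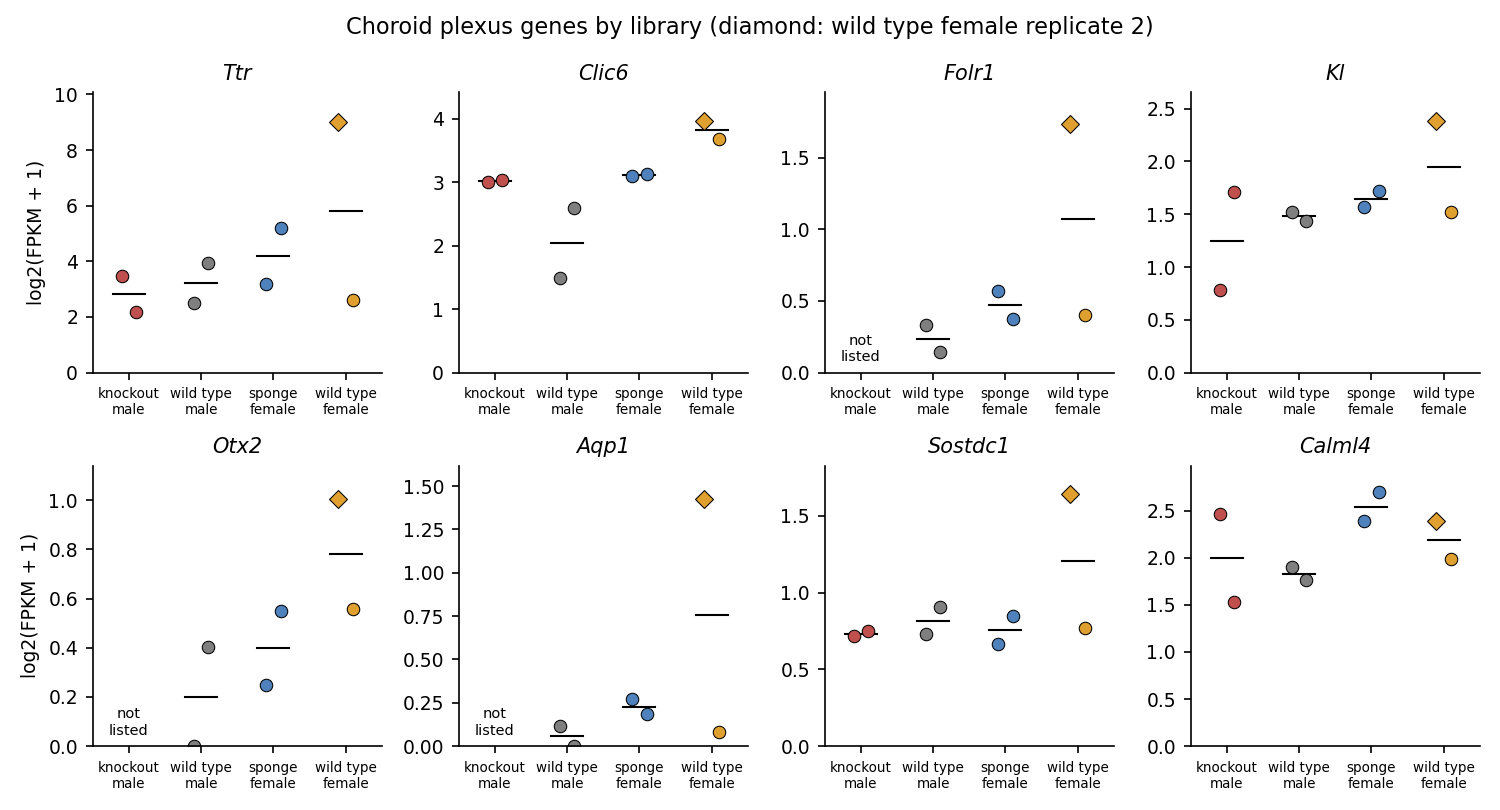
Level of each listed gene as log2(FPKM + 1) on a linear axis from 0, with 1 point per library and a bar at the mean of each group of 2. The diamond is wild type female replicate 2, which is the highest point for every gene except Calml4, and wild type female replicate 4 is also above all other groups for Clic6 and, narrowly, for Otx2.

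Ttr encodes transthyretin, the thyroxine and retinol-binding protein carrier that the choroid plexus secretes into cerebrospinal fluid. Its gene lies at 18:20665250-20674324 on the plus strand (GRCm38). Ttr stood at 510 FPKM in wild type female replicate 2 and at 5.03 in wild type female replicate 4. It stood at 8.20 and 35.4 in the sponge females, at 4.68 and 14.2 in the wild type males, and at 10.1 and 3.47 in the knockout males. The value in wild type female replicate 2 was 14.4-fold above the next library, sponge female replicate 2 (whose second-read raw file is missing per the labels), and 62.2-fold above the median of the other 7. Ttr was the gene of rank 3 by FPKM among 13631 genes in that library. In the other libraries its rank lay between 682, in sponge female replicate 2, and 8041, in knockout male replicate 2. The wild type female mean was therefore 258 ± 357 (SD, n = 2), a spread larger than the mean itself, and every other group overlapped it.

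Folr1 encodes folate receptor alpha, which carries folate across the choroid plexus epithelium, and it was the rarer companion of the same pattern. It stood at 2.32 and 0.322 FPKM in wild type female replicates 2 and 4, at 0.482 and 0.295 in the sponge females, and at 0.257 and 0.103 in the wild type males. Replicate 2 was thus 4.82-fold above the next library, while replicate 4 lay between the sponge females. The deposited Folr1 transcripts Folr1-006, Folr1-015 and Folr1-017 were listed at 2.15, 1.53 and 1.33 FPKM in wild type female replicate 2 and at 0 in wild type female replicate 4, both sponge females and both wild type males. With 0 in every other library that lists them, these transcripts were listed through wild type female replicate 2 alone, so their pattern supports nothing. The other listed Folr1 transcripts did not share that pattern. Folr1-014 stood at 1.26 FPKM in sponge female replicate 1, at 0.547 in wild type female replicate 2 and was listed at 0 in the other female libraries. Folr1-002 was listed in the males only, at 0.334 and 0.700 in the knockout males and at 0 and 0.180 in the wild type males.

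Clic6 and Aqp1 belong to the transport of ions and water, and they behaved differently from each other. Clic6, a member of the chloride intracellular channel family at 16:92485736-92541243, stood at 14.6 and 11.8 FPKM in the wild type females, 7.59 and 7.70 in the sponge females, 7.01 and 7.19 in the knockout males, and 1.80 and 5.01 in the wild type males. The order of the group means was wild type females at 13.2 ± 1.98, sponge females at 7.64 ± 0.0780, knockout males at 7.10 ± 0.127 and wild type males at 3.40 ± 2.27 (SD, n = 2 each). No neighbouring groups in that order overlapped, and wild type female replicate 4 carried this high Clic6 with a Ttr of only 5.03. Aqp1, the water channel of the apical membrane, stood at 1.69 FPKM in wild type female replicate 2 and at 0.0568 in replicate 4. In the sponge females it stood at 0.206 and 0.137, and in the wild type males at 0.0818 in replicate 1 and listed at 0 in replicate 2. Aqp1 was thus 8.19-fold above the next library in wild type female replicate 2 and at 0.206 FPKM or less in every other library that lists it.

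Kl, Sostdc1 and Calml4 encode the remaining proteins of the set. Kl encodes klotho, a co-receptor for FGF23 that choroid plexus also sheds into cerebrospinal fluid. It stood at 4.21 and 1.87 FPKM in the wild type females, 1.97 and 2.29 in the sponge females, 1.88 and 1.70 in the wild type males, and 0.725 and 2.28 in the knockout males. Apart from 4.21 in wild type female replicate 2 and 0.725 in knockout male replicate 1, the values lay within 1.70 and 2.29. Sostdc1 encodes a secreted antagonist of BMP and Wnt signals, and it stood at 2.12 FPKM in wild type female replicate 2. In the other 7 libraries it lay between 0.585 and 0.876 with a median of 0.678, so that library was 2.42-fold above the next.

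Calml4, a calmodulin-like protein of brush borders, did not follow the pattern. It stood at 4.23 and 5.51 FPKM in the sponge females, 4.27 and 2.97 in the wild type females, 4.55 and 1.88 in the knockout males, and 2.73 and 2.41 in the wild type males. The highest library was sponge female replicate 2, and the whole range from lowest to highest was 2.93-fold, against 147-fold for Ttr. The deposited tables split it into 2 transcripts that share a span on chromosome 9. Calml4-201 was the higher in 7 libraries, at 1.57 to 4.19 FPKM, whereas wild type male replicate 1 had 0.953 for Calml4-201 and 2.12 for Calml4-202.

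Otx2 encodes the homeobox factor that specifies and maintains choroid plexus epithelium. It stood at 1.01 and 0.470 FPKM in the wild type females, 0.188 and 0.461 in the sponge females, and in the wild type males it was listed at 0 in replicate 1 and stood at 0.321 in replicate 2. The wild type females lay above both other groups, with replicate 4 barely above sponge female replicate 2. Folr1, Aqp1 and Otx2 were in the sponge and sex tables and not in the knockout table, so they have no gene-level value in the knockout males. They entered the sponge and sex tables through the wild type females, with group means of 1.32, 0.873 and 0.739 FPKM against the cut-off of 0.5, and all other group means of these 3 genes were under it. On the other side, Sostdc1 was just inside the knockout table, with means of 0.660 and 0.766.

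RefSeq promoter windows of GRCm38.p6, which run from 250 bases before to 50 after a gene start, were found for 5 of the 9 genes: Kl, Aqp1, Slc4a5, Calml4 and Otx2. They were searched on both strands for TAATCC, the core bound by OTX2 and related homeodomains, which reads GGATTA on the other strand. The motif was found in 1 of 8 windows, and in 7.1% of all 32851 windows of that length. Otx2 has several RefSeq starts and so gave several of the 8 windows, some of them overlapping. The first base of the window with the match already lies in a GENCODE exon of Otx2, downstream of another RefSeq start of the gene. The match was 211 bases before a RefSeq start of Otx2 and 74 bases before the start of the deposited transcript Otx2-001, and it is shown with 12 bases on either side because OTX2 is the factor whose own gene it lies in. The Kl and Aqp1 windows had no match. They are shown up to the RefSeq start because these were members high in wild type female replicate 2 for which a window was found. Capitals mark the motif.
Otx2, chr14:48665303-48665332 (-): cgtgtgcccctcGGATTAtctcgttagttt
Kl, chr5:150952357-150952606 (+): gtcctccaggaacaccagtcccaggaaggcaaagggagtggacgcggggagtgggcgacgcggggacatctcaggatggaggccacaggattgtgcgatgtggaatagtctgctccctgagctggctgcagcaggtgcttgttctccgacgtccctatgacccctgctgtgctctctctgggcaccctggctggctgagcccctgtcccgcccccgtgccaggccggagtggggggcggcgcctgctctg
Aqp1, chr6:55336049-55336298 (+): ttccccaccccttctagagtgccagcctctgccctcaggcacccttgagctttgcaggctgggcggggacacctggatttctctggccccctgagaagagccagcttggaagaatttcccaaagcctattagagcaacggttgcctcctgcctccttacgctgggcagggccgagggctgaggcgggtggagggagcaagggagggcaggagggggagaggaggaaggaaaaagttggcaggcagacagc
A match here describes letters in a window and not a bound site.

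The members resembled each other mainly through 1 library. Over the 10 pairs of the 5 genes with values in 8 libraries, the median Pearson r of log2(FPKM + 1) was 0.516 and the median Spearman rho 0.417. Without wild type female replicate 2, the median r over 7 libraries was 0.0780. Ttr and Sostdc1 had r = 0.935 over 8 libraries and 0.567 without it, and Kl and Calml4 had r = 0.0100 over 8 libraries. Ttr and Calml4 went against the fall in the median, with r = 0.523 over 8 libraries and 0.707 without wild type female replicate 2. All pairs share the same 8 libraries and their scaling, so these values describe the libraries only.

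Genes outside the set were ranked by their Pearson r with the mean log2(FPKM + 1) of those 5 members, among 3788 genes with a mean FPKM of at least 1 and a log2 range of at least 1. The 12 highest were Cdip1, Enpp2, Aard, Rpl36al, 1500015O10Rik, Vps33a, Coprs, Rnf103, Rpl22, Usp46, Fzd3 and Yy1, with r from 0.925 down to 0.836, and all 12 were highest in wild type female replicate 2. Without that library their r lay between 0.184 and 0.866. Enpp2, which encodes autotaxin, a secreted lysophospholipase of choroid plexus and oligodendrocytes, was also the gene most like Ttr alone, at r = 0.950. Its FPKM was 90.6 in wild type female replicate 2 and between 19.0 and 28.7 elsewhere. The gene 1500015O10Rik, which encodes the secreted peptide augurin, stood at 12.3 in that library and between 1.24 and 3.87 elsewhere. Likeness to Ttr next named Rpl36al, Cdip1, Zfp958, 1500015O10Rik and Aard; without wild type female replicate 2 the r of these 6 genes lay between 0.425 and 0.907. Likeness to Otx2 over 6 libraries named Ankrd37, Slc39a10, Akap11, Ndufc2, Pbdc1 and Fzd3, with r from 0.989 to 0.947, of which 3 were highest in wild type female replicate 2. Without that library, their r with Otx2 over 5 libraries lay between 0.889 and 0.971. The genes were ranked by values that include these libraries, and 5 are few, so this r is a description only.

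**Figure D2:**
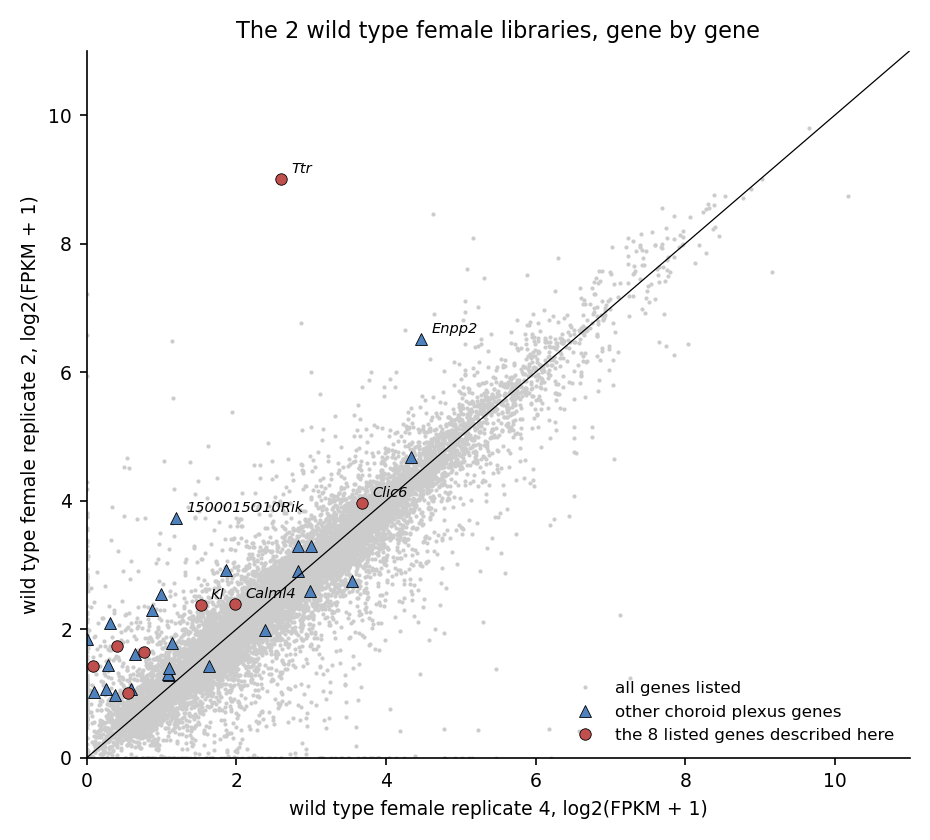
Each point is 1 gene, placed by its log2(FPKM + 1) in wild type female replicate 4 (x) and replicate 2 (y), with a line of equality. Circles are the listed choroid plexus genes described here and triangles the other choroid plexus genes, with Ttr at 510 against 5.03 FPKM and Enpp2 at 90.6 against 21.1.

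Part of a second list of choroid plexus genes was also highest in the same library. A list of 33 such genes, which excludes the 9, had 25 listed. Of these, 15 (60.0%) were highest in wild type female replicate 2, against 12.8% of all genes. At least 2-fold above the next library were 7, against 0.252% of all genes. These 7 were Cox8b, F5, Tmem72, Kcnj13, 1500015O10Rik, Enpp2 and Cldn1, named because they passed that fold. Of these, Cox8b, F5, Tmem72 and Cldn1 have no value in the knockout males. Steap1, also among the 15, has none either. All of these were listed only through the wild type females, whose replicate 2 is the high library, so the counts of 15 and 7 support nothing. By mean FPKM the list was led by Enpp2, Slc4a10 and Cab39l. Slc4a10, a bicarbonate transporter that neurons also express, stood at 24.5 FPKM in that library against 15.7 to 27.5 elsewhere, and Cab39l was lowest there, at 5.71. Kcnj13, the apical potassium channel of this epithelium, stood at 3.26 FPKM there and between 0 and 0.985 elsewhere. F5, which encodes coagulation factor V, stood at 1.73 there and at 0.454 or less in the other 5 libraries that list it. Cox8b, a mitochondrial subunit, stood at 2.61 there and was listed at 0 in the same 5 libraries. Of all 33 genes with an FPKM of at least 1 that were at least 2-fold above the next library there, 12 were thus choroid plexus genes, 5 of them members. The 12 include members and other genes listed only through the wild type females, so this count is a description and supports nothing. The other 21 included Mfrp, which stood at 2.26 FPKM against 0.365 in the next library, and Hcrt, a neuropeptide gene of the lateral hypothalamus, at 53.4 against 26.0. Some of the 21, such as Gm9843 at 148 FPKM and Cxx1a at 60.1, stood at 0 in every other library with a value, as Cox8b did. Rpl36al stood at 40.7 against 6.045 in the next library. Mfrp, Hcrt, Gm9843 and Cxx1a were chosen after their values were seen, and what sets these values was not tested.

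Marker lists were then summed per library. Over 20 other choroid plexus genes with values in all libraries, FPKM was 196 in wild type female replicate 2 and between 90.3 and 111 elsewhere. Enpp2 carried much of that gap: without it the sum was 105, against 67.5 to 87.6 elsewhere. The sum over 5 members was likewise carried by Ttr: it was 535 there and 51.7 in the next library, and without Ttr it was 25.2 there and 17.4 in the next, wild type female replicate 4. Summed over 16 leptomeningeal and fibroblast genes, led by Ptgds, Dcn and Mgp, it was 87.8 in that library and reached 389 in knockout male replicate 1. The 87.8 was narrowly the lowest of the 8, the next being 88.7. Ptgds made up 63.5 of the 87.8, and 3 of the 16 genes were lowest there. Over 17 ependymal genes, led by Ccdc153, Foxj1 and Rarres2, the sum was 91.2, within 71.1 and 109 in the other libraries. None of the 16 leptomeningeal and none of the 18 listed ependymal genes was highest there. Tanycyte genes summed to 398 in that library and to 80.5 in wild type female replicate 4, where Nnat alone stood at 23.8 against 220 to 349 elsewhere. The astrocyte sum, led by Ndrg2, Aldoc and Slc1a2, was the highest of the 8 there, at 1142 against 930 to 1084 elsewhere. The endothelial and mural sum was 73.7, within 53.9 and 85.7, and the pan-neuronal sum was 692, within 683 and 796. The sum over 12 arcuate neuron genes was 206, narrowly the lowest of the 8, against 209 to 514 elsewhere. The 514 was in sponge female replicate 1, where Sst alone stood at 187. Cartpt alone stood at 12.2 in wild type female replicate 2 against 55.2 to 119 elsewhere, and 2 of the 12 genes were lowest there. The part of these differences in the values of the members was not tested.

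**Figure D3:**
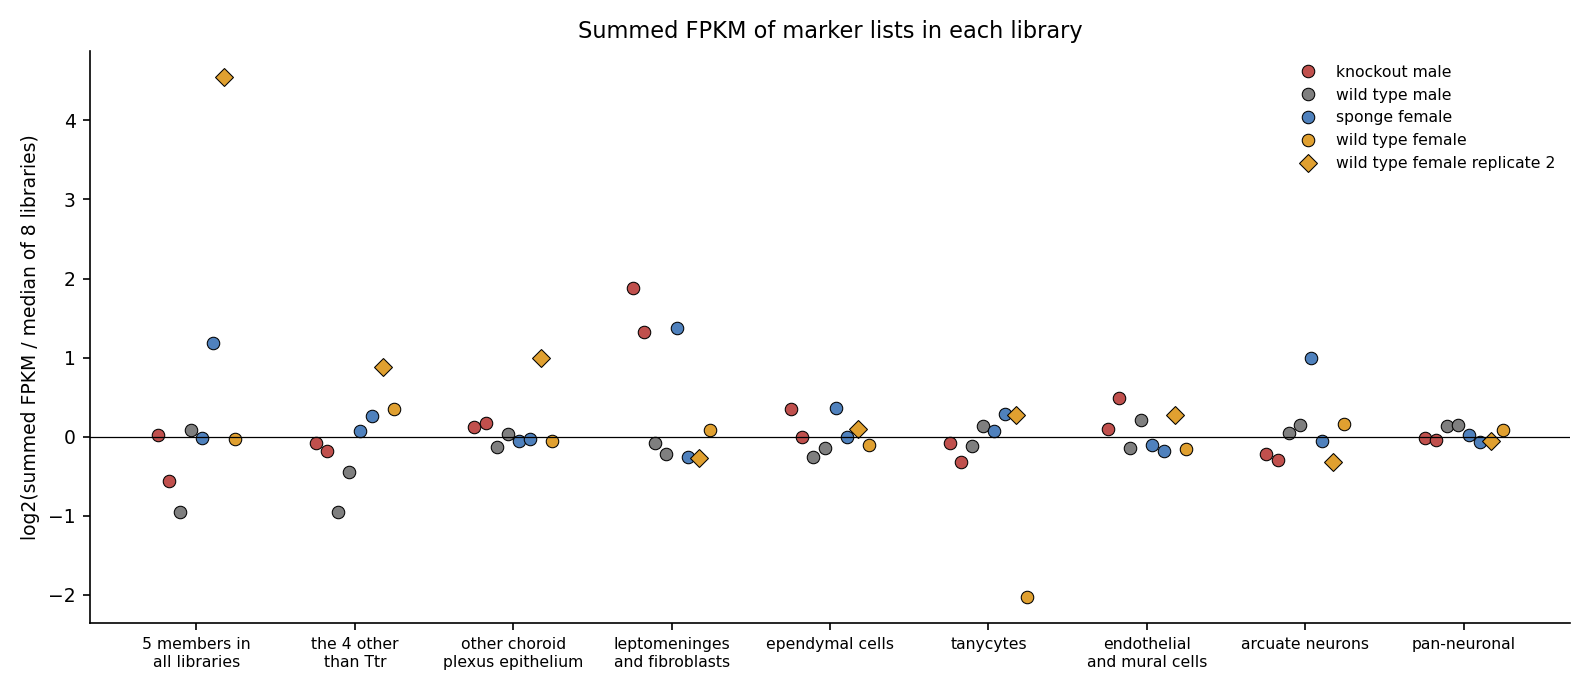
Summed FPKM of each marker list in each library, as log2 of its ratio to the median of the 8 libraries, with groups by colour and wild type female replicate 2 as a diamond. The diamond is far above the other libraries for the 5 members, where Ttr makes up 510 of 535 FPKM, less so for the 4 other than Ttr and for the other choroid plexus genes. It is narrowly the lowest point for leptomeninges and fibroblasts, where Ptgds makes up most of the sum.

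The genes that work with the members were counted in the same way, to be read beside the 12.8% of all genes that were highest in wild type female replicate 2. In the thyroxine and retinol list, 2 of 11 listed genes (18.2%) were highest there, and Rbp4, the retinol-binding protein that transthyretin carries in blood, was lowest there at 0.577 FPKM. In the folate list, 0 of 8 were highest there, and Slc46a1, the proton-coupled folate transporter, stood at 1.81 against 3.11 in wild type female replicate 4. In the list of cerebrospinal fluid ion transport, 6 of 21 (28.6%) were, with Kcnj13 as the 1 gene past 2-fold. In the klotho and FGF receptor list it was 1 of 6, among transcription factors of the choroid plexus and dorsal midline 1 of 8, around Sostdc1 0 of 12, and among calmodulins and partners of Calml4 3 of 6, the highest share among these 7 role lists. The last 3 included Calm2, at 393, and Ezr, at 18.9, whose product ezrin links membrane to actin in microvilli. Rbp4 and Ezr were chosen after their values were seen. Ush1c, among the 6 of the Calml4 list, and Nog, among the 12 around Sostdc1, have no value in wild type female replicate 2. They could not be highest there, whereas the 12.8% is over genes with a value in that library.

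In the comparison of sponge with wild type females, which asks what lowering free miR-7 in POMC neurons does, differences were taken on the log2(FPKM + 1) scale, which understates the change of genes near 0. The 8 listed genes had a median difference of -0.49, against -0.03 over all 13157 genes fitted, and 7 of the 8 were lower in the sponge females. Folr1, Aqp1 and Otx2 are among them only through the wild type females, so these figures describe the genes listed and support nothing. Without wild type female replicate 2 the median was 0.09. Clic6 was lower by 0.71 ± 0.17 (SE) in the sponge females, and by 0.57 without that library. Otx2 had a difference of -0.38 ± 0.24, and -0.16 without it. Ttr went from -1.60 ± 2.36 to 1.60, so its direction turned on 1 library, as did those of Folr1 (-0.60 ± 0.49, then 0.07), Aqp1 (-0.53 ± 0.50, then 0.15) and Kl (-0.31 ± 0.34, then 0.12). Sostdc1 went from -0.45 ± 0.35 to -0.01, and Calml4, the 1 gene higher in the sponge females, from 0.35 ± 0.23 to 0.56. With all 4 libraries, in 2 of the 8 genes, Clic6 and Otx2, both libraries of one group lay above both of the other, as they did in 31.3% of all genes, so the count is near the background. limma with Benjamini-Hochberg adjustment called 14 of all genes (0.106%), and 0 with any 1 library left out.

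In the comparison of wild type females with wild type males, all 6 genes that passed a mean FPKM of 0.5 over the 4 libraries were higher in females, with a median difference of 0.65 against 0.06 over 13114 genes. Aqp1 and Otx2 did not pass that filter, and the 6 include genes that passed through the females, so the median does not speak for all 9. Without wild type female replicate 2 the median was 0.10. Clic6 was higher in females by 1.79 ± 0.42 (SE), by 1.65 without wild type female replicate 2, and by 1.24 to 2.34 with any 1 of the 4 libraries left out. Ttr went from 2.58 ± 2.27 to -0.63, Folr1 from 0.83 ± 0.49 to 0.17, Kl from 0.47 ± 0.34 to 0.04, Sostdc1 from 0.39 ± 0.35 to -0.05 and Calml4 from 0.36 ± 0.22 to 0.15. Of the 8 listed genes, Clic6, Folr1, Otx2 and Calml4 had groups that did not overlap, that is 4 of 8, where 35.4% of all genes did so. Folr1 and Otx2 are listed only through the wild type females, so this count is a description and supports nothing. The wild type females of this comparison are those of the sponge comparison, so the values of both rest on the same libraries. They were littermates of the sponge females, and the wild type males were littermates of the knockout males. Sex and mouse line therefore cannot be told apart here, for Clic6 or any other gene. limma called 9 of all genes (0.0686%).

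In the comparison of knockout with wild type males, which asks what loss of the miR-17-92 cluster in POMC neurons does, 5 of the 9 genes were listed. Their median difference was -0.09 against 0.03 over 13155 genes. Clic6 was higher in the knockout males by 0.98 ± 0.41 (SE), with 7.01 and 7.19 FPKM against 1.80 and 5.01, and by 0.43 to 1.54 with any 1 library left out. Ttr had a difference of -0.40 ± 0.67, Kl -0.23 ± 0.36, Sostdc1 -0.09 ± 0.18 and Calml4 0.17 ± 0.36, and each of these 4 changed sign when 1 library was left out. Clic6 was the 1 of 5 genes whose groups did not overlap, against 38.8% of all genes. limma called 8 of all genes (0.0608%). In these libraries the leptomeningeal sum was 389 and 265 in the knockout males against 99.8 and 91.0 in the wild type males; the part of this in the Clic6 values was not tested.

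**Figure D4:**
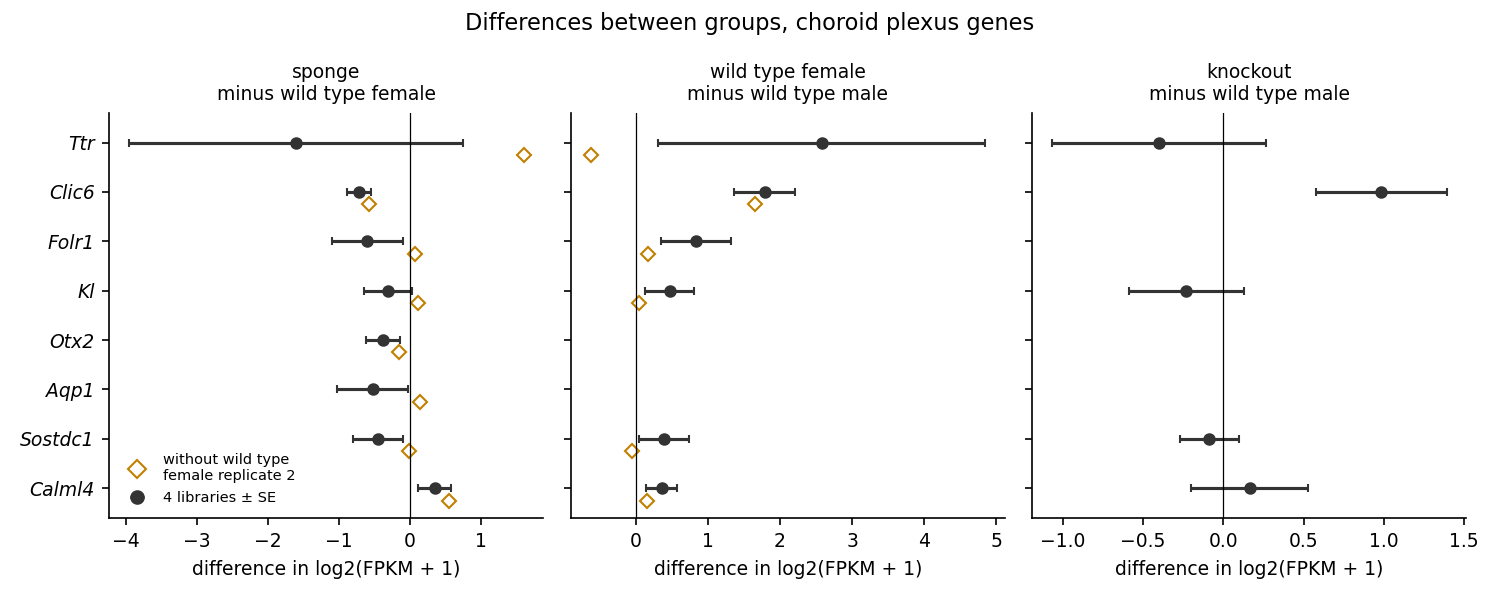
Difference in log2(FPKM + 1) for each listed gene in the 3 comparisons; filled points with bars are the estimate from 4 libraries ± SE, open diamonds the estimate without wild type female replicate 2. Ttr crosses 0 when that library is left out in both comparisons that use it, and Clic6 does not.

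The genes of the 20 other lists, among them all the role and cell type lists above, gave no call in any comparison by limma with an adjusted p under 0.05. In the sponge comparison 0 of 223 tested genes passed, and 10 had an unadjusted p under 0.05, against 495 of all 13157 genes. In the sex comparison it was 0 of 220 and 7, against 604 of all 13114. In the knockout comparison it was 0 of 224 and 24, against 701 of all 13155, and 8 of the 24 were leptomeningeal genes. The other choroid plexus genes had 17 of 22 lower in the sponge females with a median of -0.26. Without wild type female replicate 2, 9 were lower and 12 higher, with a median of 0.16. They had 19 of 22 higher in wild type females than males with a median of 0.30, and 12 of 22 without that library, with a median of 0.05. Cox8b and F5, listed only through the wild type females, are among the genes tested in both comparisons, so these counts are a description and support nothing. Other cell type lists differed in the sponge comparison too. Of the oligodendrocyte genes 13 of 15 were lower in the sponge females, with a median of -0.32, while 15 of 16 leptomeningeal genes and 15 of 18 ependymal genes were higher, with medians of 0.28 and 0.16. In the knockout males 12 of 19 other choroid plexus genes were higher, with a median of 0.15, while all 16 leptomeningeal genes were higher, with a median of 0.92.

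MicroRNAs lower their targets by pairing bases 2 to 8, the seed, with a site in the 3' UTR of a messenger RNA. The microRNAs that the sponge binds and those of the deleted cluster are shown because their seeds define the sites searched for, with the seed in capitals (RefSeq, GRCm38.p6). They fall into 5 seeds: miR-7a-5p shares its seed with miR-7b-5p, miR-17-5p with miR-20a-5p, and miR-19a-3p with miR-19b-3p.
miR-7a-5p: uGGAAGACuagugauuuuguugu
miR-7b-5p: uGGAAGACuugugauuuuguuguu
miR-17-5p: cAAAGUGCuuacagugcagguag
miR-20a-5p: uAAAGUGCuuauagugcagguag
miR-18a-5p: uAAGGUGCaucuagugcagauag
miR-19a-3p: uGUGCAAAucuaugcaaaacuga
miR-19b-3p: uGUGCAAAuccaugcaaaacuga
miR-92a-3p: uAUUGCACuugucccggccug
The longest GENCODE M21 3' UTR of each listed member was searched for a perfect match of 7 bases to each seed. The miR-7 match was in none of the 8, and in 14.0% of 13548 listed genes with a 3' UTR. Of the cluster's seeds, Aqp1 held a match of miR-17-5p and miR-20a-5p (14.8% of genes) and another of miR-18a-5p (9.4%), and Kl held a match of miR-19a-3p and miR-19b-3p (13.8%). None held one of miR-92a-3p (7.9%). The 3 matches are shown with their flanks, with the matched bases in capitals and the GRCm38 coordinates of those bases.
Aqp1, miR-18a-5p, chr6:55347201-55347207 (+): ccttggggtagGCACCTTatctccaaagg
Aqp1, miR-17-5p and miR-20a-5p, chr6:55347218-55347224 (+): tatctccaaagGCACTTTgagggagagga
Kl, miR-19a-3p and miR-19b-3p, chr5:150991911-150991917 (+): gccgtcagccgTTTGCACctctctgtgtt
Kl, with its 1 match, stood at 0.725 and 2.28 FPKM in the knockout males against 1.88 and 1.70 in the wild type males, so the groups overlapped. Aqp1 has no value in the knockout males. Clic6, Ttr, Folr1, Otx2, Sostdc1 and Calml4 had no match to any of the 5 seeds in these UTRs.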

How the data were processed

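The authors deposited FPKM per gene and per transcript, computed with StringTie and Ballgown per the series design text; log scaling and tests were done here. The tools were HISAT2 2.0.4, StringTie 1.2.3, cutadapt and FastQC, and the builds mm10 and GRCm38, per the submitters' processing notes; their settings are not given in the sources used here. Per the labels' protocols, libraries were selected with oligo(dT), stranded by dUTP and read for 150 cycles from both ends. The labels state that the second-read raw file of sponge female replicate 2 is missing, so whether its FPKM rest on 1 or both ends is unknown. FPKM corrects for gene length and library size, not for RNA composition.

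The 9 genes and the gene lists were chosen with earlier results of these data known. Named genes are the 9, the genes ranked by likeness, the 2 of highest mean FPKM and the 2 of widest range of each role list, the 3 highest of each cell type list, the tissue markers, and any listed gene called; others are said to be chosen later. Some genes under this rule are not reported here. limma 3.58.1 in R 4.3.3 (empirical Bayes with trend) took log2(FPKM + 1) of genes averaging 0.5 FPKM or more across the 4 libraries compared, without a replicate block, and was tested on simulated data. A two-sided p under 0.05 after Benjamini-Hochberg adjustment over all genes made a call. Alternatives were a pseudocount of 0.1, equal medians, no filter, each library left out and a replicate block.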

Additional observations from a re-analysis of the deposited data

How the results depend on the processing

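Leaving out any 1 library gave 0 called genes in each of the 3 comparisons by limma (1 sample is then assumed to vary like the other group), with 685 to 713 genes at an unadjusted p under 0.05 in the sponge comparison, 695 to 1146 in the knockout comparison and 633 to 897 in the sex comparison. The median difference over the members ranged from -0.87 to 0.09 in the sponge comparison, from -0.18 to 0.26 in the knockout comparison and from 0.10 to 1.2 in the sex comparison. A pseudocount of 0.1 took the called genes of the knockout comparison from 8 to 2, and the replicate block, possible for that comparison only since the other groups share 1 number, took them to 0 with 582 at an unadjusted p under 0.05; deviations of same-numbered libraries had r = 0.001, so the numbers were not treated as pairs, and the cause was not tested. The other counts, under the pseudocount, equal medians or no filter, stayed within 1.5 times of those reported. With the pseudocount of 0.1 the members' medians were -0.88 in the sponge, 1.27 in the sex and -0.18 in the knockout comparison, all over 1.5 times those reported, Otx2 went to -0.98 in the sponge and Folr1 to 1.91 in the sex comparison; a smaller pseudocount by construction widens differences of genes near 0. Equal medians or the block moved the medians by less than the spread between libraries. Alternatives chosen after seeing the data were the other choroid plexus genes without wild type female replicate 2, whose median went from -0.26 to 0.16 in the sponge and from 0.30 to 0.05 in the sex comparison, and sums without their leading gene: the ratio of that library to the next went from 10.4 to 1.45 for the members without Ttr and from 1.76 to 1.2 for the other choroid plexus genes without Enpp2. The 7 genes highest in wild type female replicate 2 were 7 also by summed transcript FPKM. Depth is unknown, so no lower limit of detection is given for the genes near 0.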
